A study of Mus musculus with 12 samples.

Results

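ncRNA_as_chr10_8460 is a long noncoding RNA (lncRNA) on the plus strand of mouse chromosome 10, at chr10:7498997-7502517 in genome build mm9. It is 1 of the 15558 lncRNAs in the authors' deposited table and 1 of the 1966 that the table classes as antisense, that is, transcribed from the strand opposite to an annotated gene. It was picked by its identifier for its higher level after TCPOBOP than after PCN. That difference was first seen in stranded whole-liver libraries, and all values of the lncRNA were in view. The differences between the agonists therefore describe the choice, and no test of them is read as a result for this lncRNA. The table names neither the gene on the other strand nor any gene symbol. The 13 marker symbols of liver cell types looked for matched 0 entries, so the cell type behind the RNA was not measured.

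All mice were CD-1, an outbred stock, at 8 weeks of age, and had been injected with TCPOBOP or with PCN. The stranded libraries came from whole liver of males at 3 h and 6 h after TCPOBOP and at 3 h and 6 h after PCN, with 1 library of 6 pooled livers each. The unstranded libraries, all at 3 h, were 3 female and 3 male pools of TCPOBOP liver nuclei (3 or 4 livers each), 1 library of male PCN liver nuclei (2 livers) and 1 of male TCPOBOP whole liver (6 livers). The labels give 3 experiment codes: G86 for the female nuclear pools, G95 for the TCPOBOP pools of male nuclei, and G81 for the 6 libraries left. Polyadenylated RNA was sequenced throughout. Vehicle-treated libraries were not used here, so a rise with TCPOBOP cannot be told apart from a fall with PCN. The labels number the pools and say no more of their animals, so p-values from the unstranded libraries measure only the spread between these pools. The stranded libraries hold no replicate pools, so the p-values of their fit of time measure no such spread. In pooled bulk tissue, fewer cells of a type cannot be told apart from less RNA per cell.

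TCPOBOP is an agonist of the constitutive androstane receptor (CAR) in mice, and PCN is an agonist of the pregnane X receptor (PXR) in rodents. Both are nuclear receptors of the hepatocyte that bind DNA as partners of the retinoid X receptor and switch on genes for drug metabolism, with the Cyp2b, Cyp2c and Cyp3a cytochrome P450 families among their known targets. Antisense lncRNAs overlap a gene on the opposite strand. Some are known to act on that gene, and for many no role is known.

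Depth differed between libraries. Each library held between 7314289 and 40291718 reads, and lncRNAs took 0.794% to 0.918% of the reads in stranded libraries and 3.78% to 5.09% in unstranded ones. Levels are given in RPKM, reads per kilobase of the lncRNA and per 1000000 reads of the library. For this lncRNA a count of 0 would allow up to 3 reads, or 0.0212 to 0.117 RPKM, and it was above that floor in 12 of 12 libraries. Its intervals are exact 95% Poisson intervals and cover counting error only.

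In stranded male liver the lncRNA had 17.1 RPKM (16.2 to 17.9, 1544 reads) at 3 h and 22.8 RPKM (21.8 to 23.7, 2231 reads) at 6 h after TCPOBOP. After PCN it had 1.14 RPKM (0.929 to 1.38, 103 reads) at 3 h and 2.08 RPKM (1.79 to 2.40, 184 reads) at 6 h. Both TCPOBOP libraries stood above both PCN libraries, and the counting intervals of all 4 were apart. The ratio of TCPOBOP to PCN was 15.0 at 3 h (exact conditional binomial 95% interval 12.3 to 18.5) and 11.0 at 6 h (9.43 to 12.8). With 1 library for each agonist and time these ratios have no replicate check.

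The lncRNA stood higher in the order of abundance after TCPOBOP. It ranked 17th of 6223 lncRNAs above 0 after TCPOBOP at 3 h and 16th of 5931 at 6 h, and among antisense lncRNAs it ranked 4th at both times. After PCN it ranked 220th of 6022 at 3 h and 113th of 5619 at 6 h. Its share of all lncRNA reads was 0.654% at 3 h and 1.01% at 6 h after TCPOBOP, against 0.0464% and 0.0905% after PCN.

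**Figure D1:**
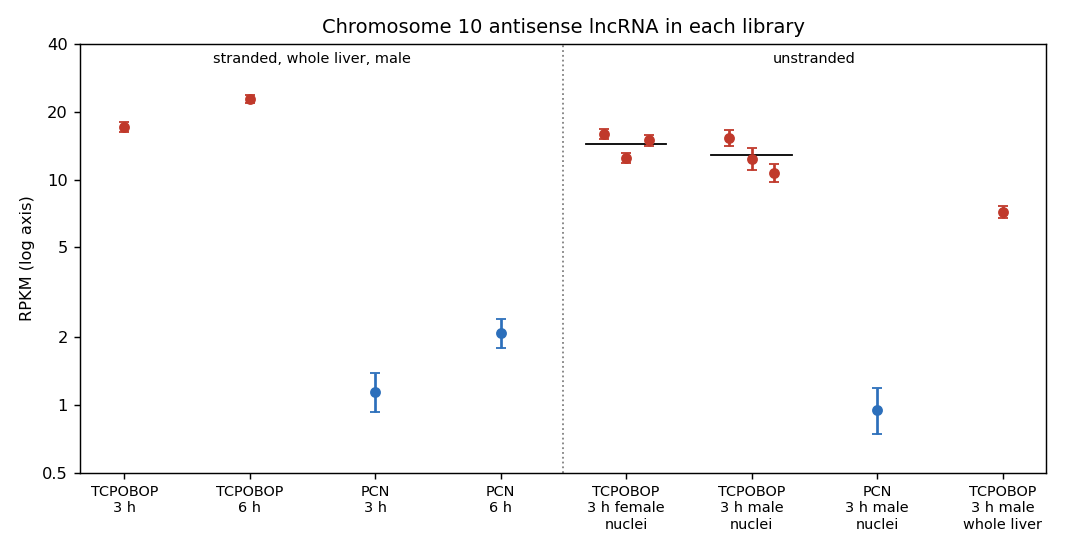
Level of the lncRNA in each of the 12 libraries in RPKM on a log axis, with red points for TCPOBOP, blue points for PCN, error bars for the exact 95% Poisson interval of the reads, and black lines for the mean of 3 pools. In stranded libraries TCPOBOP lies at 17.1 and 22.8 RPKM and PCN at 1.14 and 2.08 RPKM, and in unstranded libraries TCPOBOP lies between 7.19 and 15.9 RPKM and PCN at 0.945 RPKM.

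Among lncRNAs with at least 0.5 RPKM with either agonist, the log2 difference of this lncRNA on the log2(RPKM + 0.1) scale was 3.79 at 3 h and 3.39 at 6 h. The median was 0.15 at 3 h over 633 lncRNAs and 0.02 at 6 h over 566. A difference of at least 4-fold in favour of TCPOBOP was found for 13 lncRNAs (2.05%) at 3 h, for 14 (2.47%) at 6 h, and at both times for 5 of 475 (1.05%), this lncRNA among them. Since these are the values that chose it, nothing is read from that membership. The antisense class as a whole had medians of 0.18 over its 158 other members at 3 h and -0.01 over 140 at 6 h, and 0 of the 123 other members measured at both times differed 4-fold at both.

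**Figure D2:**
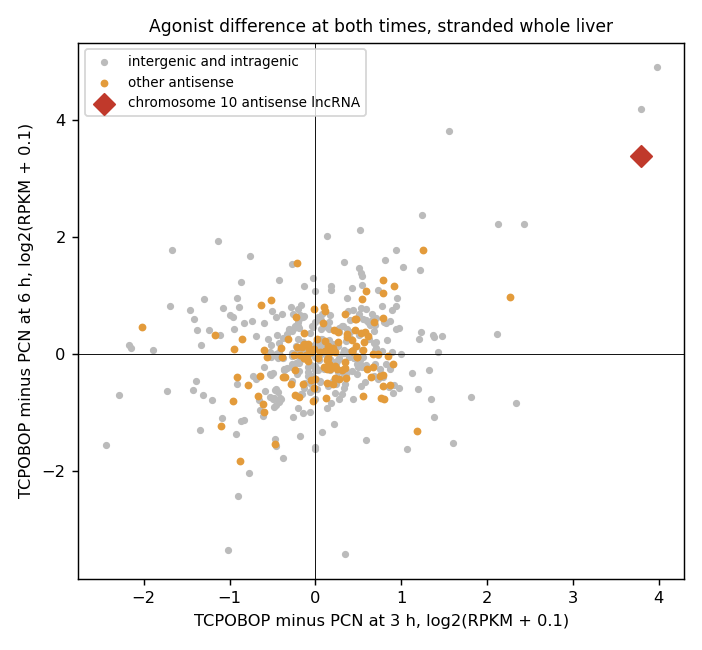
Difference between TCPOBOP and PCN in stranded whole liver at 3 h (x axis) and 6 h (y axis), as TCPOBOP minus PCN on the log2(RPKM + 0.1) scale, for 475 lncRNAs with at least 0.5 RPKM with either agonist at each time. The antisense lncRNA (red diamond) lies at 3.79 and 3.39, away from the 123 other antisense lncRNAs (orange).

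The difference between the agonists was also large in liver nuclei. Male TCPOBOP liver nuclei had 15.3, 12.4 and 10.7 RPKM (577, 319 and 448 reads) in pools 1, 2 and 3, and male PCN liver nuclei had 0.945 RPKM (73 reads, 0.741 to 1.19). All 3 TCPOBOP pools were above the PCN library, by 16.2-fold, 13.1-fold and 11.3-fold. The mean was 12.8 ± 2.35 RPKM (SD, n = 3) with TCPOBOP, 13.6 times the PCN value. The log2 difference in the limma fit was 3.61 (SE 0.26), the 18th highest among 6480 lncRNAs. At a two-sided Benjamini-Hochberg adjusted p under 0.05, 271 of the 6480 (4.18%) were called higher and 68 (1.05%) lower with TCPOBOP. No call is given for this lncRNA, since it was chosen with these values known, and its nuclear difference describes that choice.

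The median over all lncRNAs tested was 0.26 in that contrast, and relative to it the difference was 3.36. Of the calls 79.9% were higher with TCPOBOP, 58.0% with the library medians set equal, and 41.6% (234 higher and 329 lower) with no filter beyond an RPKM above 0. The difference of this lncRNA was 3.34 with equal medians. With 1 PCN library of 2 livers, the SE here and every nuclear agonist p given for other lncRNAs hold no spread between PCN pools, and the spread of the replicated TCPOBOP pools stands in for it. The TCPOBOP pools are of experiment G95 and the PCN library of G81, so agonist and experiment cannot be told apart there, and no nuclear pair lies within 1 experiment. Within G81 the unstranded TCPOBOP whole-liver library had 7.19 RPKM (1020 reads) against 0.945 RPKM in PCN nuclei, a ratio of 7.61 (exact interval 6.00 to 9.79) between libraries that also differ in fraction. The 4 stranded libraries are all of G81.

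**Figure D3:**
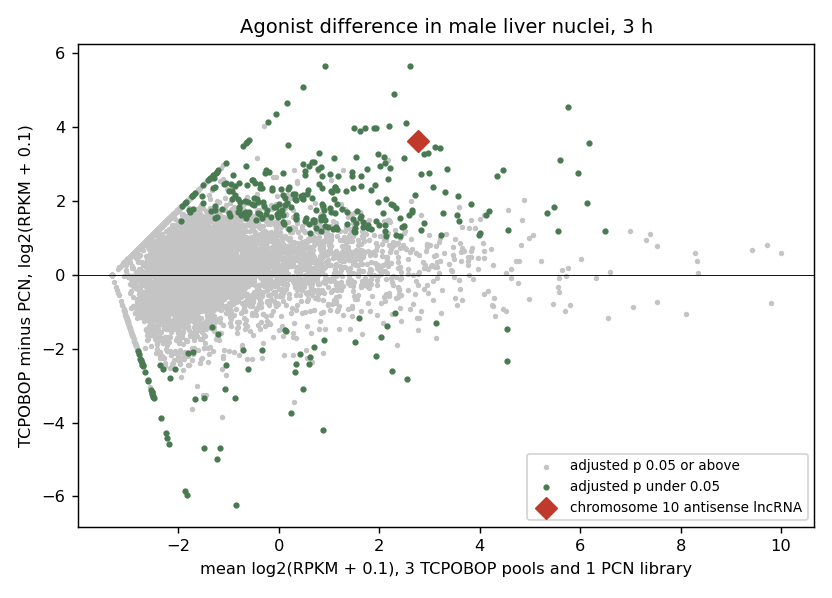
Difference between 3 TCPOBOP pools and 1 PCN library of male liver nuclei at 3 h (y axis, TCPOBOP minus PCN on the log2(RPKM + 0.1) scale) against the mean level (x axis) for 6480 lncRNAs, with those at a limma adjusted p under 0.05 in green. The p-values hold no spread between PCN pools. The antisense lncRNA (red diamond) lies at 3.61.

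Female liver nuclei carried the lncRNA at about the male level after TCPOBOP. The female pools had 15.9, 12.4 and 14.9 RPKM (1402, 1401 and 1203 reads), and the male pools 15.3, 12.4 and 10.7 RPKM. The groups overlapped. The means were 14.4 ± 1.80 RPKM in females and 12.8 ± 2.35 RPKM in males (SD, n = 3 each), a ratio of 1.13. The log2 difference of 0.18 (SE 0.19, 95% interval -0.25 to 0.61) did not pass the test (limma adjusted p = 0.594), while 8.79% of 5951 lncRNAs were called in that comparison. Relative to the median of all lncRNAs tested it was 0.27. The female pools are all of G86 and the male pools all of G95, so the effects of sex and experiment cannot be told apart. The interval still allows a difference of the size of its bounds.

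Pools of the same group differed by more than counting error. The coefficient of variation was 12.4% among female pools and 18.4% among male pools, against a counting error of 2.67% to 5.60% per pool. The highest pool exceeded the lowest by 1.28-fold in females and 1.43-fold in males. No such spread can be had for the stranded libraries, so their counting intervals leave out the error between pools.

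With time after injection the lncRNA was higher at 6 h than at 3 h in both arms. The ratio of 6 h to 3 h was 1.33 after TCPOBOP (exact interval 1.25 to 1.42) and 1.82 after PCN (1.43 to 2.35). The TCPOBOP ratio lies within the 1.43-fold range seen between replicate nuclear pools of males, and the PCN ratio above it. Those pools are unstranded nuclear RNA of another experiment with fewer livers each, so their range does not measure the spread between stranded whole-liver pools. The TCPOBOP ratio was 0.731 times the PCN ratio (95% interval 0.570 to 0.938 from counting error alone). In an additive fit of the 4 libraries, with 1 residual degree of freedom, the log2 difference between 6 h and 3 h was 0.61 (SE 0.20) and did not pass (limma adjusted p = 0.428). The residual of that fit is the difference between the agonists in their change with time, not a spread between pools. limma called 0 of 2270 lncRNAs there (0%), with 273 at an unadjusted p under 0.05, and limma-voom on recovered reads called 0 as well. The median of all lncRNAs tested was -0.16, and relative to it the difference was 0.77. Time and clock hour go together in this design.

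Nuclear and whole-liver levels after TCPOBOP were compared in unstranded male libraries at 3 h. The nuclear pools had 15.3, 12.4 and 10.7 RPKM and the whole-liver library 7.19 RPKM (6.76 to 7.65), so all 3 pools were above it, by 2.13-fold, 1.72-fold and 1.49-fold. The log2 difference of 0.81 (SE 0.26, 95% interval 0.20 to 1.41) did not pass over all 6480 lncRNAs tested (limma adjusted p = 0.0898), against 11.4% called. It passed with lncRNAs of a mean of at least 1 RPKM (limma adjusted p = 0.0353) and with limma-voom on recovered reads (adjusted p = 0.0330). The median of all lncRNAs was 0.29 and that of the 1244 other antisense lncRNAs 0.65, of which 309 were called higher and 24 lower in nuclei. Relative to the median of all lncRNAs tested, the difference of this lncRNA was 0.52. Fraction and experiment cannot be told apart, the pools being of G95 and the whole-liver library of G81.

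The same agonist, time, sex and fraction gave unequal values with and without strand. The unstranded TCPOBOP whole-liver library at 3 h had 7.19 RPKM and its stranded counterpart 17.1 RPKM, a ratio of 0.421 (exact interval 0.389 to 0.457). Over 614 antisense lncRNAs with at least 0.5 RPKM in either library the median log2 difference, unstranded minus stranded, was 2.83. The value of this lncRNA was -1.23, and 81 of the 614 (13.2%) were lower in the unstranded library. Its share of lncRNA reads was 0.0656% in the unstranded library and 0.654% in the stranded one. Why this lncRNA was lower in the unstranded library was not tested. In a library without strand, reads of the gene on the opposite strand cannot be told from those of the antisense lncRNA. The 2 libraries are also 1 pool each, so the difference has no replicate check. The level in stranded and unstranded libraries is for this reason set side by side and not ranked across them.

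Within the unstranded libraries the order was 15.9, 15.3, 14.9, 12.4, 12.4 and 10.7 RPKM for the 6 nuclear TCPOBOP pools of both sexes, then 7.19 RPKM for TCPOBOP whole liver, and last 0.945 RPKM for PCN nuclei. The counting intervals of the first 3 overlap, as do those of the next 2, and that of the lowest pool (9.73 to 11.7) overlaps that of male pool 2 (11.1 to 13.8).

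By structure the lncRNA is compact. Its recovered length of 3521 bases equals its full span, so no intron was left out of the length used for its RPKM, as for 994 of the 1798 antisense lncRNAs above 0 in any library (55.3%). The median span of those 1798 was 5123 bases, and 63.5% had a longer span. Of the 984 lncRNAs on chromosome 10, 99 are antisense. None overlaps it, and 16 lie within 500000 bases, of which 15 were above 0 in any library and 4 reached 1 RPKM in any library.

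The nearest entry of the table, ncRNA_inter_chr10_8461, is an intergenic lncRNA at chr10:7504142-7505432, 1625 bases downstream, with no strand given. In stranded liver it had 5 and 10 reads (0.151 and 0.278 RPKM) at 3 h and 6 h after TCPOBOP, and 0 and 1 reads (0 and 0.0308 RPKM) after PCN. At 6 h the ratio was 9.04 with a counting interval whose lower bound was 1.29. In male nuclei it had 1.16, 0.635 and 0.521 RPKM (16, 6 and 8 reads) with TCPOBOP and 0.141 RPKM (4 reads) with PCN. These values lay above the PCN value in 3 of 3 pools, with a log2 difference of 1.79 (SE 0.63) that did not pass (limma adjusted p = 0.138). Female nuclei had 4.31, 1.36 and 1.80 RPKM. The log2 difference of 1.47 (SE 0.44), female minus male, did not pass either (limma adjusted p = 0.0816), while 8.79% of 5951 lncRNAs were called.

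Relative to the antisense lncRNA, the downstream entry had a higher level in unstranded than in stranded libraries. Its RPKM was 0.883% and 1.22% of that of the antisense lncRNA after TCPOBOP at 3 h and 6 h in stranded liver. In unstranded TCPOBOP whole liver it was 15.8%. Nuclear pools had 16.7 ± 9.01% in females and 5.85 ± 1.49% in males (SD, n = 3 each), and PCN nuclei 14.9%. In TCPOBOP whole liver at 3 h the log2 difference, unstranded minus stranded, was 2.30 for the downstream entry. It was -1.23 for the antisense lncRNA, and the median over 1232 intergenic lncRNAs was 2.06. Whether the entries belong to 1 transcript cannot be read from this table.

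The other near neighbours had no called difference between the agonists. Upstream, ncRNA_inter_chr10_8458 at chr10:7398769-7400956, intergenic and 98041 bases away, had 0.853 and 0.821 RPKM at 3 h and 6 h after TCPOBOP and 0.711 and 0.745 RPKM after PCN. Its log2 difference in male nuclei was 0.31 (SE 0.28, limma adjusted p = 0.545). ncRNA_as_chr10_8457, an antisense lncRNA on the minus strand 100545 bases away, had 7 and 11 reads after TCPOBOP and 12 and 6 after PCN in stranded liver, and a nuclear log2 difference of 0.13 (SE 0.29, limma adjusted p = 0.826). ncRNA_inter_chr10_8459 and ncRNA_inter_chr10_8463 had 0 reads in all 4 stranded libraries, and ncRNA_inter_chr10_8462 had 3 reads or fewer in each of them. Of the 16 lncRNAs within 500000 bases, 10 could be tested in male nuclei and limma called 0 of them between the agonists, with 1 at an unadjusted p under 0.05. The background of calls was 5.23%.

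**Figure D4:**
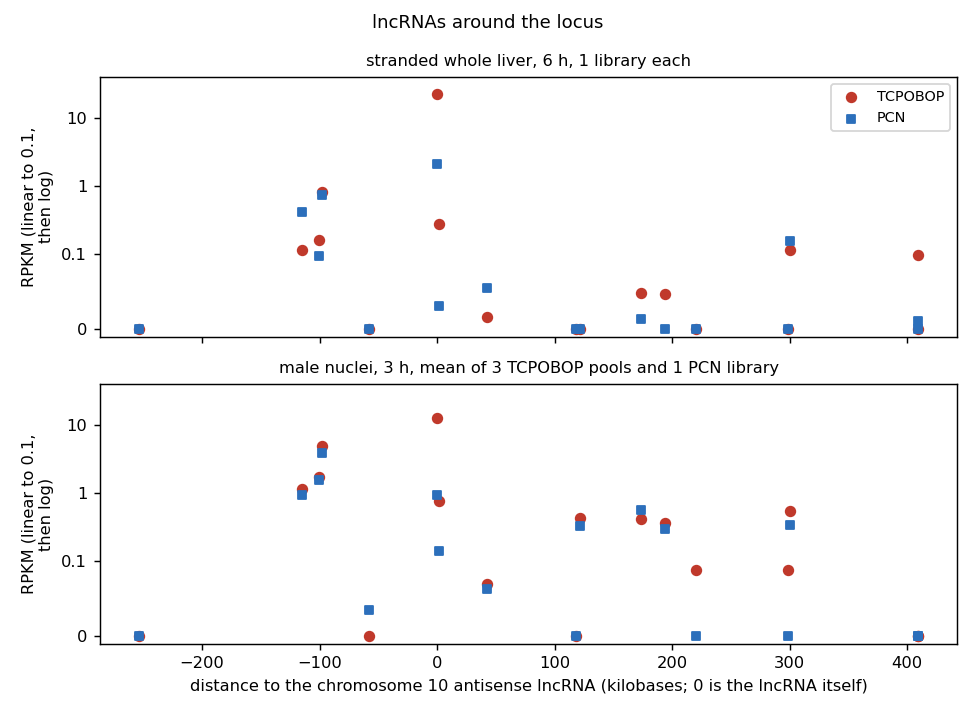
Levels of the antisense lncRNA (distance 0) and of the 16 other lncRNAs within 500000 bases, with TCPOBOP as red points and PCN as blue squares. The y axis is RPKM, linear to 0.1 and logarithmic above, and the x axis is the distance in kilobases in stranded liver at 6 h (upper plot) and in male nuclei at 3 h (lower plot). At distance 0 TCPOBOP and PCN are 22.8 and 2.08 RPKM in the upper plot and 12.8 and 0.945 RPKM in the lower one.

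lncRNAs at gene clusters known to respond to CAR or PXR were set beside these values. At the Cyp2c cluster on chromosome 19, 2 of 4 lncRNAs measured at 3 h and 6 h exceeded PCN by at least 4-fold at both after TCPOBOP, and 1 of 2 at the Cyp2b cluster on chromosome 7. Over all lncRNAs measured at both times the share was 5 of 475 (1.05%). At the Cyp3a cluster on chromosome 5 the count was 0 of 4, and the median log2 difference was -1.09 at 3 h over 4 lncRNAs and -1.29 at 6 h over 5. In male nuclei the median log2 difference was 1.48 over 14 lncRNAs at the Cyp2c cluster. It was 0.03 over 9 at the Cyp2b cluster and 0.29 over 23 at the Cyp3a cluster, against 0.26 over all 6480 tested. At the Cyp2b cluster the highest mean over all 12 libraries was 8.32 RPKM, for ncRNA_as_chr7_5999 at chr7:26693288-26995060, with ncRNA_inter_chr7_5998 next at 7.43 RPKM. ncRNA_as_chr7_5999 had 8.93 to 10.4 RPKM in male TCPOBOP nuclei and 0.988 RPKM in PCN nuclei, but in stranded liver it had 0.00546 and 0.00336 RPKM at 3 h and 6 h after TCPOBOP and 0 reads after PCN. Its mean in male TCPOBOP nuclei, 9.67 RPKM, was below the 11.8 RPKM of ncRNA_inter_chr7_5998. The highest by its mean over all 12 libraries at the Cyp2c cluster, ncRNA_intra_chr19_15016 at chr19:40085553-40187923, had 115.6 to 171.5 RPKM in male TCPOBOP nuclei and 11.2 RPKM in PCN nuclei. In stranded liver it had 0 and 0.0396 RPKM at 3 h and 6 h after TCPOBOP, against 0.129 and 0.0438 RPKM after PCN. At such low levels a difference between the agonists could not be read. The nuclear libraries are unstranded, so strand and fraction change together between the values given here, as they do for ncRNA_as_chr7_5999. The levels of these lncRNAs in the unstranded whole-liver library are not given. At the Cyp3a cluster the highest by the same mean, ncRNA_intra_chr5_4738 at chr5:146389075-146670818, had 175.5 to 275 RPKM with TCPOBOP and 479.8 RPKM with PCN in male nuclei, a log2 difference of -1.07 that did not pass (limma adjusted p = 0.0738). In stranded liver it had 48.7 and 39.6 RPKM at 3 h and 6 h after TCPOBOP, against 123.5 and 97.2 RPKM after PCN. Among the 1244 other antisense lncRNAs tested in nuclei, the median log2 difference was 0.43. A large nuclear difference was not particular to the chromosome 10 lncRNA within its class. The antisense ncRNA_as_chr1_605 had 3.98 and ncRNA_as_chr1_614 had 3.28, against 3.61 for the chromosome 10 lncRNA.

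Likeness to the profile over all 12 libraries was measured as the root-mean-square difference between log2(RPKM + 0.1) values centred on each lncRNA's own mean, over 3743 lncRNAs with at least 0.5 RPKM in any library. It takes in differences between stranded and unstranded libraries as well as those between agonists. The nearest was ncRNA_intra_chr19_15014, an intragenic lncRNA at chr19:40083334-40185159 in the Cyp2c cluster, at 0.79 log2 units, where the median lncRNA stood at 1.69 and a flat profile would stand at 1.49. It had 4.16 and 1.73 RPKM at 3 h and 6 h after TCPOBOP in stranded liver, and 0.208 RPKM and 0 reads after PCN. In male nuclei it had 2.16 ± 1.30 RPKM (SD, n = 3) with TCPOBOP and 0 reads with PCN. The next was ncRNA_inter_chr12_10621 at chr12:71329329-71333013, at 0.95, with 0.993 and 1.34 RPKM after TCPOBOP and 0.656 and 0.453 RPKM after PCN in stranded liver, and 2.93 ± 0.806 RPKM and 0.291 RPKM in male nuclei. The remaining 4, on chromosomes 4, 4, 6 and 9, stood at 1.00 to 1.09 and had smaller agonist ratios in stranded liver than the antisense lncRNA.

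**Figure D5:**
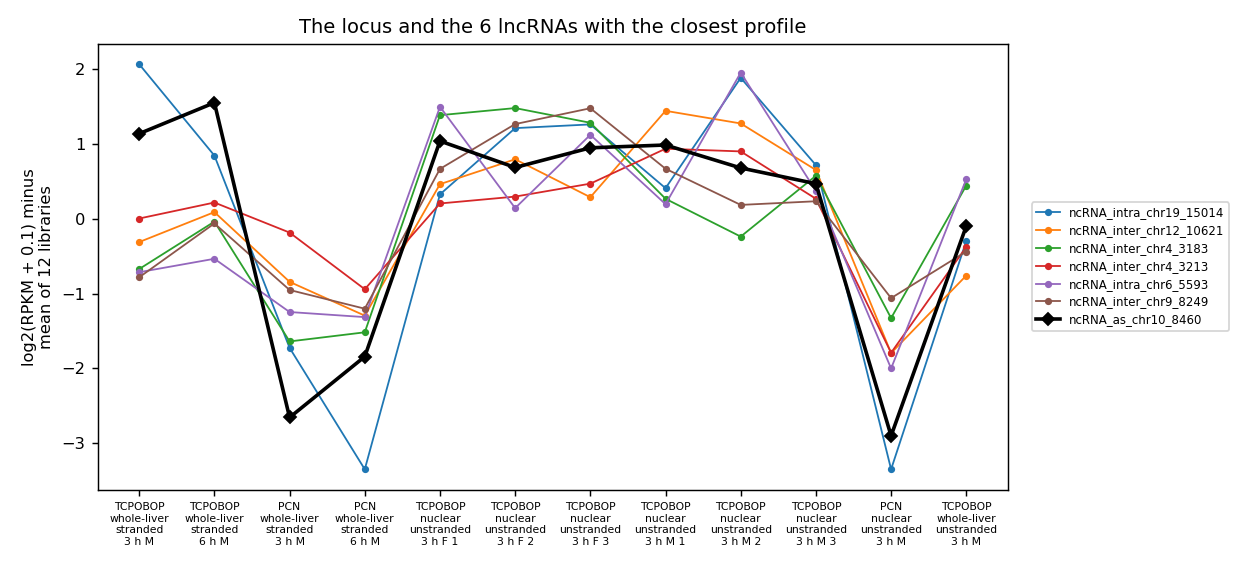
Profiles over the 12 libraries of the antisense lncRNA (black diamonds) and of the 6 lncRNAs closest to it, as log2(RPKM + 0.1) minus the mean of each lncRNA (y axis), with F and M for female and male and a pool number for the nuclear TCPOBOP pools. The lines join libraries for reading only, and the closest lncRNA (blue) differs from the antisense lncRNA by 0.79 log2 units on root-mean-square average.

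Over the 4 stranded libraries alone the closest of 723 lncRNAs were ncRNA_inter_chr11_9914 (0.54), ncRNA_inter_chr7_5998 (0.64) and ncRNA_intra_chr19_15011 (0.82). Their nuclear values played no part in that order. ncRNA_inter_chr7_5998, at chr7:26670803-26677472 in the Cyp2b cluster, had 9.28 to 13.4 RPKM in the male TCPOBOP nuclei and 0.588 RPKM in PCN nuclei, and the log2 difference was 4.10 (SE 0.26) with a limma adjusted p = 7.49e-04. For ncRNA_inter_chr11_9914 the values were 0 to 0.0539 RPKM with TCPOBOP and 0 reads with PCN, and it was too low to be tested. ncRNA_intra_chr19_15011 had 0 to 0.883 RPKM and 0 reads, and its log2 difference of 1.87 (SE 1.19) did not pass (limma adjusted p = 0.397).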

How the data were processed

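Polyadenylated liver RNA was sequenced in 12 libraries. The authors deposited 1 table of lncRNA levels in RPKM, per the file headers, and reads had been aligned with TopHat2 to mm9, per the submitters' processing notes. How reads were counted, whether strand was used in counting, and which annotation served is not given in the sources used here. Of 25 value columns, 12 matched a library by label, and 13 were not used here. Steps of whole reads could be seen in the values. With 1 total for each library and 1 length for each lncRNA, 100% of 89242 values above 0 were whole reads within 1e-06.

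limma 3.58.1 in R 4.3.3 was fitted, with a mean-variance trend, to values of log2(RPKM + 0.1), and the fits were tested on simulated data. Fold changes on that scale understate changes of low lncRNAs. Entry required 0.1 RPKM in 2 (stranded fit) or 3 libraries. The nuclear contrasts came from 1 fit of the 8 unstranded libraries. Named lncRNAs were the 3 nearest on each side, the 6 closest in profile over 12 libraries and 3 over 4, and the highest at each Cyp cluster. The lncRNA and all lists were chosen with earlier results of these data known. The reference supplied is of another build, so neither the sequence nor the gene opposite was read. p-values of the unstranded fits measure the spread between pools, and those of the stranded fit of time do not. Alternatives were other pseudocounts, filters, scaling, limma-voom, a block on pool number and leaving out each pool.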

Additional observations from a re-analysis of the deposited data

How the results depend on the processing

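Of 46 alternatives for the 4 comparisons of the antisense lncRNA fitted with limma, 44 kept its direction and its side of the threshold, and the other 2 kept its direction. Of the 46, 13 are for the nuclear agonist difference. Nothing is read from those, since the lncRNA was chosen with these values known. Its mean log2 difference between TCPOBOP and PCN in stranded liver, which has no test, was 3.01 with a pseudocount of 1, against 3.59. The nuclear against whole-liver difference was called with lncRNAs of a mean of at least 1 RPKM (0.81) and with limma-voom on recovered reads (0.82). The nuclear agonist difference was 2.81 to 3.74 over 13 settings. With the block on pool number the female against male difference was 0.18 (limma adjusted p = 0.645) and 287 lncRNAs were called, against 523. Same-numbered pools had correlations of -0.018, -0.074 and 0.000, so the numbers give no sign of pairing.

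Counts of calls over all lncRNAs moved more. Between the sexes 334 were called with no filter and 239 with a mean of at least 1 RPKM, and 159 to 367 without any 1 pool. Between the agonists in nuclei 224 were called with equal medians, 563 with no filter (41.6% of them higher with TCPOBOP), 684 with limma-voom and 93 in the male libraries alone, against 339, and 164 to 437 without any 1 pool. Between fractions limma-voom called 1523 and the male libraries alone gave 318, against 738. Between times 27 were called with a mean of at least 1 RPKM and 122 with the spread of all 12 libraries, against 0. The causes were not tested. With equal medians 58.5% of the sex calls were higher in females, against 44.6%, and 62.0% of the fraction calls were higher in nuclei, against 76.7%. Depth limits the downstream entry, with 10 reads or fewer in each stranded library.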
